A study of Homo sapiens with 6 samples.

Results

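This account follows 10 genes that drive or restrain the passage of a cell through the G1 phase and into DNA synthesis. They are the D-type cyclin genes CCND1 and CCND3, the E-type cyclin genes CCNE1 and CCNE2, and the kinase genes CDK2, CDK4 and CDK6. The others are the inhibitor gene CDKN1B, the retinoblastoma gene RB1 and the transcription factor gene E2F1. All 10 were chosen by name for their role in this axis, with earlier results of these data known. All were found by symbol among the 50868 genes of the tables. RNA was sequenced in 6 libraries from cells labelled A549, a human lung adenocarcinoma line, grown in medium with serum. In 3 libraries the cells had been transfected with a scramble control siRNA, and in 3 with an siRNA against SF3B4, a subunit of the SF3b complex that recognises the branch point of introns. The genotype labels call the controls wild type and call SF3B4 siRNA replicates 1, 2 and 3 knockdowns of SF3B4, SF3B5 and SF3B6, while titles and treatment labels name SF3B4 for all 3, and the titles were followed. The sources used here do not state the siRNA sequence, its dose or how long cells were kept after it. The titles call the replicates biological without saying what separated them, so p-values measure the spread between these libraries, which may be technical.

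In early G1, growth signals raise D-type cyclins, which bind CDK4 and CDK6, and the active kinases phosphorylate the RB protein. RB then releases E2F transcription factors, which bind DNA together with a DP partner and switch on genes for DNA synthesis, cyclin E among them. Cyclin E binds CDK2, which phosphorylates RB further, and p27, the product of CDKN1B, holds cyclin E-CDK2 in check. Lung adenocarcinomas often enter this pathway by losing the CDK4 and CDK6 inhibitor p16 (CDKN2A) or by gaining cyclin D.

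Levels are FPKM, fragments per kilobase of transcript scaled to the sequencing depth of the library, so they can be compared between genes per unit of length. Between 9327 and 9678 genes per library reached 1 FPKM, and the size of 1 fragment implied by the values corresponds to about 17514669 to about 18545994 fragments per library. The target SF3B4 read 88.6, 92.0 and 93.8 FPKM in controls and 22.0, 17.7 and 22.3 FPKM after its siRNA, without overlap (log2 fold change -2.15, SE 0.10, limma adjusted p = 8.8e-05). The cell label was checked against marker genes. Epithelial markers were present, with KRT8 at 221 to 248 FPKM and KRT18 at 235 to 296 FPKM. The sum of all 4 epithelial markers moved with the treatment, from 523 to 571 FPKM in controls to 588 to 648 FPKM after SF3B4 siRNA. Among them, CDH1 rose from 41.2 ± 7.75 to 75.0 ± 12.1 FPKM (SD, n = 3 each, limma adjusted p = 0.0080) and EPCAM from 21.3 ± 3.47 to 27.2 ± 1.51 FPKM (limma adjusted p = 0.049). Of the enzyme genes for which A549 is known, AKR1C1, AKR1C2, ALDH1A1 and ALDH3A1 were under 1 FPKM in each library, and AKR1C3 and AKR1B10 reached at most 1.15 and 2.25 FPKM. Alveolar type II markers were under 1 FPKM, with SFTPB and SFTPC at 0. The column headers of the tables name another lung cancer line, H1650, and the labels were followed for the name. The immune marker sum moved with the treatment (2.45 to 2.87 FPKM in controls, 4.71 to 6.59 after SF3B4 siRNA), carried by CD14, while PTPRC was at 0 throughout. The fibroblast marker sum moved from 1.32 to 1.48 FPKM to 2.26 to 2.36 FPKM, carried by COL1A1, with DCN and LUM at or near 0, and the 3 endothelial markers summed to at most 0.151 FPKM. Whether these moves have a part in the results was not tested.

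2 promoters are shown because they hold the words searched below, and they were picked with the changes of their genes known. CDK4 fell, while E2F1 did not pass the test. Whether these words go with a change was not tested. Of the 10 genes, 7 had at least 1 window in a RefSeq table of promoters (GRCh38.p14), 250 bases before to 50 bases after a start site, and CCND1, CCNE2 and CDK2 had none. The E2F words searched were TTTCCCGC, TTTCGCGC, TTTGCCGC and TTTGGCGC on both strands, which 3.31% of the 35116 windows hold, and the E-box searched was CACGTG, the word bound by MYC and related factors, which 7.26% hold. The E2F1 window (chr20:33686336-33686635, minus strand) has 2 E2F words, at positions -33 and -20 from the start site, in capitals in the first line, the first of them on the other strand. The CDK4 window (chr12:57752261-57752560, minus strand) has 3 E-boxes, at positions -216, -196 and -101, in capitals in the second.
E2F1: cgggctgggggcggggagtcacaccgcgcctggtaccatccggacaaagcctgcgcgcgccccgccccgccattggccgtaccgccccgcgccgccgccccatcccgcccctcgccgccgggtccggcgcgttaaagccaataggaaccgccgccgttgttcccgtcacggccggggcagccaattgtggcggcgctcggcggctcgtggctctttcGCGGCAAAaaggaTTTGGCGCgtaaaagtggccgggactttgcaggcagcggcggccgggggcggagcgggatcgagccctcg
CDK4: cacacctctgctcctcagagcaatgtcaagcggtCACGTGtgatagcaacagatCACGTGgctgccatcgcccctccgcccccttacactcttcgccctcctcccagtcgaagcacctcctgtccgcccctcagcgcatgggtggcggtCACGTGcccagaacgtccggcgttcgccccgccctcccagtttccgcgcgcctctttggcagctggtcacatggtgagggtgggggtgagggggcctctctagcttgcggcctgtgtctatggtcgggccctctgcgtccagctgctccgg
One of the CDK6 windows also holds an E-box, and no window of CCND3, CCNE1, CDKN1B or RB1 holds either word. The windows of CDK4, CCND3, CDKN1B and RB1 lie wholly inside the annotated span of the gene, as does the CDK6 window without an E-box. A match describes letters in this window and does not show binding.

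After SF3B4 siRNA, CCND1, CDK2 and CDK4 fell, while CCND3, CCNE1, CDKN1B and E2F1 did not pass the test. RB1, CCNE2 and CDK6 lay below 1 FPKM in all 6 libraries and were not tested. The test was a limma linear model on log2(FPKM + 0.1) over the 9685 genes with at least 1 FPKM in at least 3 libraries, with p-values adjusted over all of them and a threshold of 0.05. It called 3 of the 7 tested genes lower and 0 higher, and 0 were higher at an unadjusted p under 0.05 either. Among all tested genes, 18.1% were called lower and 16% higher. Groups did not overlap in the same 3 of 7, against 49.5% of all tested genes, so that count is near the background. In lysed cultures, fewer cells in a phase of the cycle and less RNA per cell cannot be told apart.

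**Figure D1:**
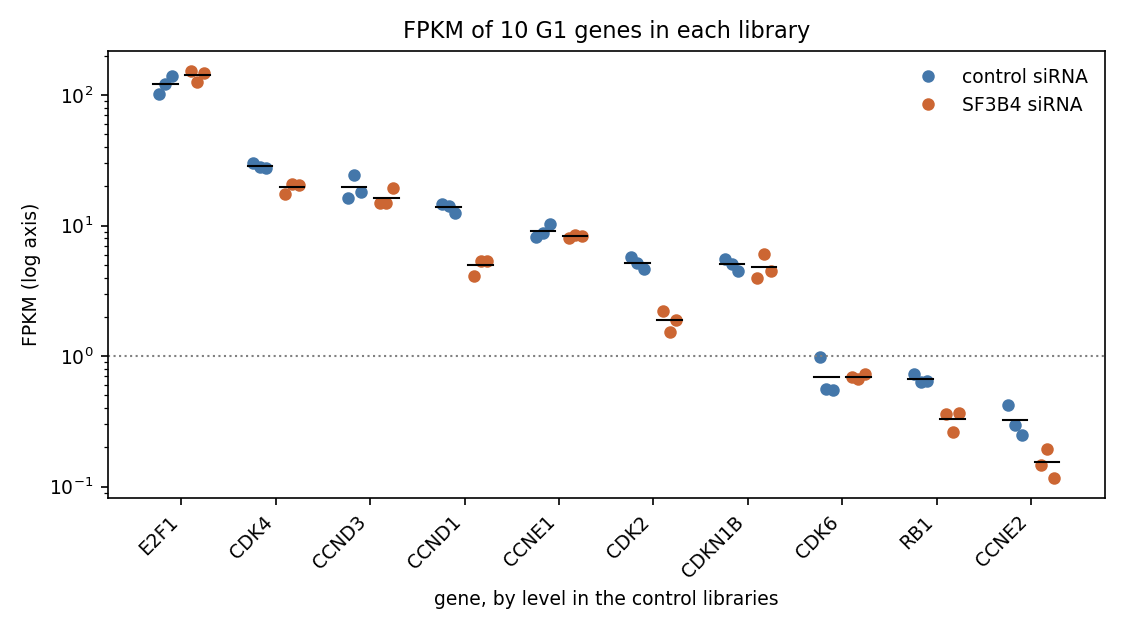
FPKM of the 10 genes in each library on a log axis, in order of their control level, with 3 control (blue) and 3 SF3B4 siRNA (orange) libraries per gene, black bars at the group means and a dotted line at 1 FPKM. CCND1, CDK2 and CDK4 separate by group, CDKN1B and E2F1 overlap, and CDK6, RB1 and CCNE2 lie under the dotted line. Of the genes under the line, RB1 and CCNE2 also separate by group.

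In control cells the levels ran from E2F1 (mean 122 FPKM) through CDK4 (28.7), CCND3 (19.6), CCND1 (13.8), CCNE1 (9.11), CDK2 (5.19) and CDKN1B (5.06) to CDK6 (0.695), RB1 (0.670) and CCNE2 (0.324). E2F1 was above 97.2% of all tested genes in its mean over the 6 libraries. Neighbours in this order did not overlap between control libraries except CDK2 with CDKN1B and CDK6 with RB1, which were within each other's spread. After SF3B4 siRNA, CCND1 (4.96 FPKM) stood below CCNE1 (8.31) and CDK2 (1.88) below CDKN1B (4.86).

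Of the D-type cyclins, CCND1, which links growth signals to CDK4 and CDK6, fell to 35.9% of its control level. It read 14.7, 14.1 and 12.6 FPKM in the control libraries and 4.10, 5.38 and 5.39 FPKM after SF3B4 siRNA. The lowest control library was more than 2 times the highest treated one. The log2 fold change was -1.47 ± 0.13 (SE, 95% interval -1.76 to -1.17, limma adjusted p = 0.00027). CCND1 (ENSG00000110092) lies on the plus strand of chromosome 11, 69641087 to 69654474 (GRCh38), and 10.3% of its exonic bases overlap LTO1 on the other strand, which was listed at 0.475 to 0.677 FPKM. CCND3, a D-type cyclin with the same kinase partners (ENSG00000112576, chromosome 6, 41934933 to 42050357), read 16.2, 24.5 and 18.2 FPKM in controls and 14.9, 14.8 and 19.3 FPKM after SF3B4 siRNA. The groups overlapped, control replicate 2 was the highest library, and the log2 fold change of -0.25 did not pass (95% interval -0.66 to 0.15, limma adjusted p = 0.30). Without control replicate 2 it was -0.08. CCND2, the remaining D-type cyclin, was listed at 0 in 5 libraries and at 0.0143 FPKM in the other. CCND1 accounted for 36.5% to 47.6% of the summed D-type cyclin FPKM in control libraries and for 21.6% to 26.6% after SF3B4 siRNA.

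Of their kinases, CDK4 was tested and CDK6 lay below the filter. CDK4 (ENSG00000135446, chromosome 12, minus strand, 57747727 to 57756013) read 30.4, 28.0 and 27.7 FPKM in controls and 17.5, 21.1 and 20.4 FPKM after SF3B4 siRNA. All treated libraries were below all controls, and CDK4 fell to 68.6% of its control level (log2 fold change -0.54 ± 0.09 SE, 95% interval -0.75 to -0.34, limma adjusted p = 0.0032). TSPAN31 overlaps 43.2% of CDK4's exonic bases on the other strand and stood at 1.21 to 1.94 FPKM in controls and 1.75 to 2.44 FPKM after SF3B4 siRNA. The sources used here do not state the strand setting, so reads of the shared stretch cannot be assigned to either gene. CDK6, which partners the same cyclins (ENSG00000105810, chromosome 7, 92604921 to 92836594), read 0.979, 0.559 and 0.547 FPKM in controls and 0.693, 0.666 and 0.734 FPKM after SF3B4 siRNA. Control replicate 1 was above and the other controls below all treated libraries, so the groups overlapped. Without the filter CDK6 was not called (log2 fold change 0.05, 95% interval -0.49 to 0.59, limma adjusted p = 0.93). Without control replicate 1 its value was 0.29 and without control replicate 3 it was -0.08. CDK4 made up 96.2% to 98.1% of the summed CDK4 and CDK6 FPKM in every library.

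CDK2, the kinase partner of cyclin E, fell to 36.3% of its control level. Its control libraries read 5.73, 5.16 and 4.69 FPKM and its SF3B4 siRNA libraries 2.22, 1.54 and 1.89 FPKM. The groups were far apart, with a log2 fold change of -1.43 ± 0.15 (SE, 95% interval -1.77 to -1.08, limma adjusted p = 0.00050). CDK2 (ENSG00000123374) lies on chromosome 12, plus strand, 55966769 to 55972784. On the other strand, 14.5% of its exonic bases overlap an antisense gene listed at no more than 0.0997 FPKM, and 2.29% overlap PMEL, listed at 0.193 to 0.302 FPKM. CCNE1, the main E-type cyclin here (ENSG00000105173, chromosome 19, 29811898 to 29824308), read 8.23, 8.77 and 10.3 FPKM in controls and 8.07, 8.55 and 8.32 FPKM after SF3B4 siRNA. These groups overlapped, and the log2 fold change of -0.12 did not pass (95% interval -0.36 to 0.11, limma adjusted p = 0.38). CCNE2 (ENSG00000175305, chromosome 8, 94879770 to 94896678) read 0.425, 0.299 and 0.247 FPKM in controls and 0.148, 0.196 and 0.118 FPKM after SF3B4 siRNA. The treated libraries were the 3 lowest, but a transcript of 3330 bases then held only about 7.26 to about 25.8 fragments. INTS8, on the other strand over 37.0% of CCNE2's exonic bases, was listed higher, at 0.598 to 0.758 FPKM. Without the filter, CCNE2 was not called (log2 fold change -0.73, 95% interval -1.29 to -0.18, limma adjusted p = 0.11).

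The inhibitor gene CDKN1B (ENSG00000111276, chromosome 12, 12715058 to 12722371) read 5.55, 5.13 and 4.48 FPKM in controls and 4.0, 6.10 and 4.48 FPKM after SF3B4 siRNA. SF3B4 siRNA replicates 1 and 2 were the lowest and the highest of all 6 libraries, and the log2 fold change of -0.07 did not pass (95% interval -0.45 to 0.31, limma adjusted p = 0.77). Leaving out SF3B4 siRNA replicate 1 turned it to 0.05. CDKN1A, the p21 gene, was more than 10 times as high as CDKN1B, at 75.3 ± 8.61 and 66.7 ± 2.75 FPKM (SD, n = 3 each, limma adjusted p = 0.19). Of the genes for inhibitors of CDK4 and CDK6, CDKN2B was listed at 0 in all 6 libraries and CDKN2A in 5, with 0.00629 FPKM in the other. CDKN2C and CDKN2D were present, at means of 4.52 and 10.6 FPKM in controls. Of the 6 inhibitor genes beside CDKN1B, 3 were tested, and 0 were called in either direction, where 18.1% and 16% of all tested genes were called lower and higher.

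RB1, whose protein binds and silences E2F factors (ENSG00000139687, chromosome 13, 48303726 to 48599436), read 0.730, 0.629 and 0.650 FPKM in controls and 0.359, 0.264 and 0.366 FPKM after SF3B4 siRNA. All treated libraries were below all controls, at 49.2% of the control level. Its transcript of 4793 bases held about 22.9 to about 63.8 fragments at these values. RB1 lay below the filter, and a fit without the filter called it lower (log2 fold change -0.85, 95% interval -1.23 to -0.47, limma adjusted p = 0.022). Its size depends on the pseudocount, with -1.01 at 0.01 and -0.33 at 1. Of the related pocket protein genes, RBL2 read 3.53 ± 0.257 and 3.83 ± 0.301 FPKM (SD, n = 3 each, limma adjusted p = 0.43), and RBL1 was under the filter.

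E2F1 (ENSG00000101412, chromosome 20, minus strand, 33675683 to 33686404) was the highest of the 10 genes in every library. It read 103, 122 and 140 FPKM in controls and 153, 125 and 147 FPKM after SF3B4 siRNA. The groups overlapped, and the log2 fold change of 0.23 did not pass (95% interval -0.06 to 0.52, limma adjusted p = 0.20). E2F1 made up 93.3% to 94.8% of the summed FPKM of the activator genes E2F1, E2F2 and E2F3 in controls and 95.9% to 96.5% after SF3B4 siRNA. TFDP1, which encodes DP1, the partner with which E2F factors bind DNA, fell from 9.12 ± 0.395 to 3.23 ± 0.208 FPKM (SD, n = 3 each, log2 fold change -1.47 ± 0.09 SE, limma adjusted p = 9.2e-05). TFDP2, for the second DP partner, was under the filter at 0.629 and 0.674 FPKM.

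**Figure D2:**
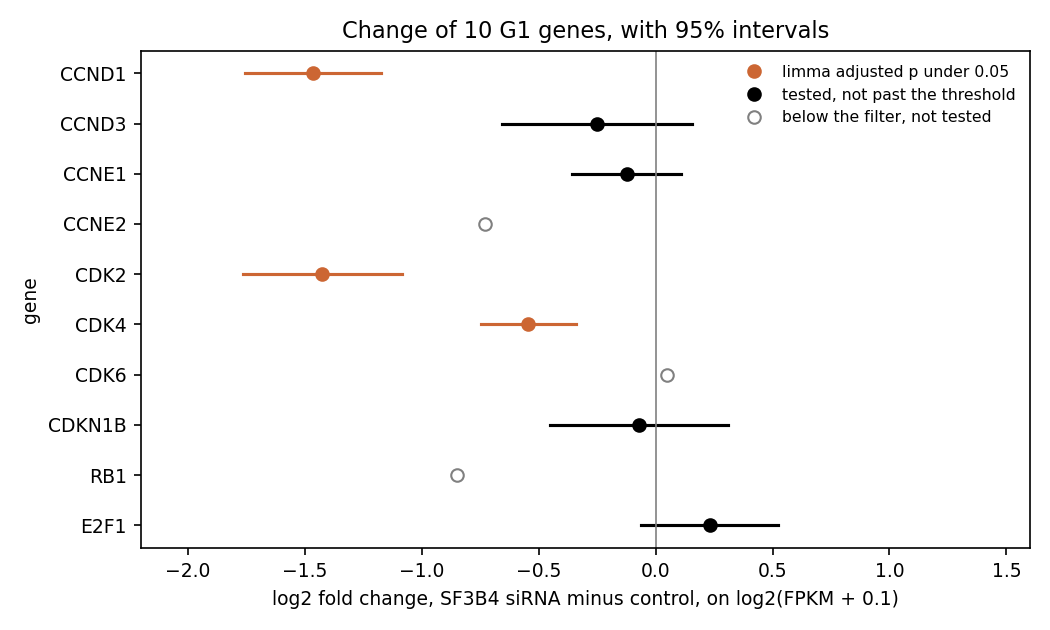
Log2 fold change (SF3B4 siRNA minus control) of the 10 genes on the log2(FPKM + 0.1) scale, with 95% limma intervals as lines for the 7 tested genes and open circles without interval for the 3 below the filter. The intervals of CCND1, CDK2 and CDK4 lie below 0, and those of CCND3, CCNE1, CDKN1B and E2F1 include 0.

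Ratios within a library show whether 2 genes moved by different amounts, and do not depend on how the library was scaled. 5 pairs were compared, each with an exact two-sided permutation test over libraries, in which 3 against 3 cannot go below p = 0.1. The ratio of CCND1 to CCND3 was 0.908, 0.576 and 0.692 in controls and 0.276, 0.364 and 0.279 after SF3B4 siRNA, without overlap (log2 difference -1.23). That of CDK2 to CDK4 was 0.189, 0.185 and 0.169 in controls and 0.127, 0.0733 and 0.0924 after SF3B4 siRNA (log2 difference -0.93). The ratio of the inhibitor gene CDKN1B to its target CDK2 was nearly the same in the 3 controls, at 0.969, 0.994 and 0.957, and 1.80, 3.95 and 2.38 after SF3B4 siRNA (log2 difference 1.40). That of CCNE1 to CCNE2 was 19.3 to 41.8 in controls and 43.7 to 70.8 after SF3B4 siRNA, with few CCNE2 fragments behind it. These 4 ratios did not overlap between groups and gave p = 0.1, the lowest this test allows (adjusted over 5 pairs 0.125, exact permutation). How often the ratios of other gene pairs overlap was not computed. Among single tested genes, 49.5% did not overlap between groups. CCND1/CCND3, CDK2/CDK4 and CDKN1B/CDK2 each contain CCND1 or CDK2, so their separation is not independent of the falls given above. The ratio of CDK4 to CDK6 overlapped, at 31.0 to 50.6 in controls and 25.3 to 31.6 after SF3B4 siRNA (p = 0.2, adjusted 0.2, exact permutation).

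**Figure D3:**
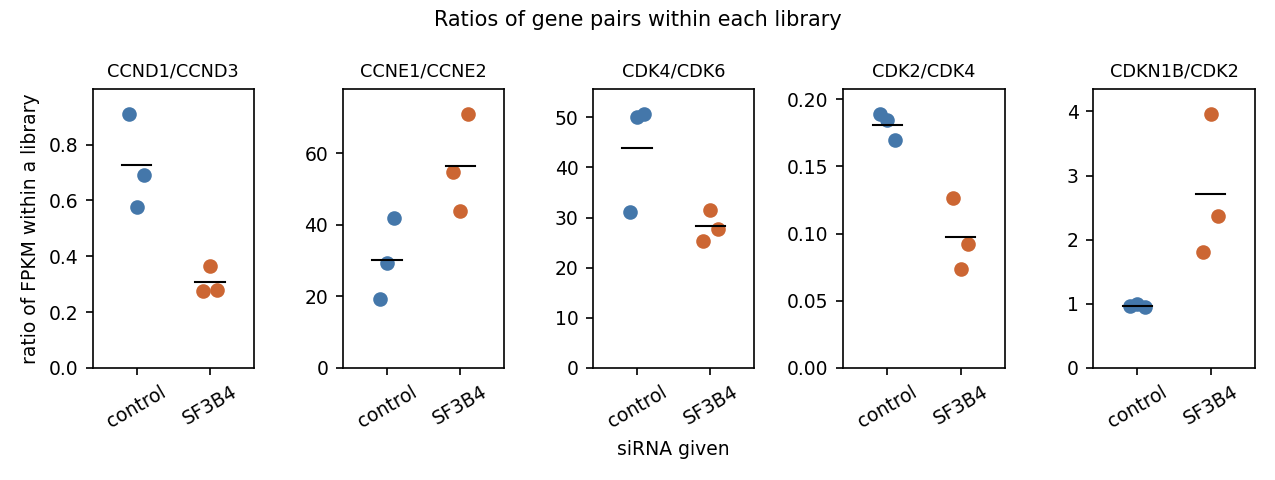
Ratio of FPKM of 5 gene pairs within each library, control (blue) and SF3B4 siRNA (orange), each panel on its own linear axis from 0, with black bars at the mean of 3 ratios. CCND1/CCND3 and CDK2/CDK4 are lower and CDKN1B/CDK2 and CCNE1/CCNE2 higher after SF3B4 siRNA without overlap, while CDK4/CDK6 overlaps.

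Genes downstream of E2F, listed with earlier results of these data known, were mostly lower. Of 30 listed E2F target genes, 28 were tested, 22 fell and 0 rose, where 18.1% of all tested genes fell, and the median log2 fold change was -0.60 against -0.0035 for all tested genes. With SF3B4 siRNA replicate 1 as the only library of its group, 14 targets were called lower. PRIM1, named next, reached the filter through the control libraries alone, so it was not tested when any of them was left out. Without PRIM1, 21 of 27 were called lower. PRIM1, the primase subunit that starts new DNA strands, read 1.92 ± 0.422 and 0.704 ± 0.148 FPKM, and CDC6, which loads the replicative helicase, read 10.5 ± 1.25 and 4.75 ± 0.803 FPKM (SD, n = 3 each). FEN1, which processes Okazaki fragments, fell from 38.4 ± 2.30 to 20.7 ± 2.12 FPKM, and the helicase subunit gene MCM4 from 11.3 ± 1.72 to 6.16 ± 0.854 FPKM. The 6 tested targets that did not pass had log2 fold changes of -0.34 to 0.31. They include MYBL2 at 355 ± 20.9 and 309 ± 34.4 FPKM and TK1 at 180 ± 7.77 and 145 ± 24.1 FPKM, which were picked out after their values were seen. The genes of this list share library and cell state and are not independent replicates.

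Of 16 other genes of the RB, E2F and MuvB complexes, 9 were tested, 4 fell and 0 rose, with a median log2 fold change of -0.34, where 18.1% of all tested genes were called lower and 16% higher. Beside TFDP1 these were LIN52, a MuvB subunit (1.54 ± 0.370 to 0.945 ± 0.0209 FPKM), the activator E2F2 (6.27 ± 0.360 to 4.85 ± 0.580 FPKM) and the repressor E2F4 (19.4 ± 1.05 to 15.3 ± 0.697 FPKM). LIN52 and E2F3 reached the filter through the control libraries alone, so neither was tested when a control library was left out. Without such genes 3 of 7 were called lower. The count of 4 became 1 with SF3B4 siRNA replicate 1 as the only library of its group, and 2 without any 1 of control replicates 2 and 3 and SF3B4 siRNA replicates 1 and 2. E2F7, for an atypical E2F repressor, was under the filter and read 0.882 ± 0.148 and 0.223 ± 0.0490 FPKM, without overlap, and E2F3 read 1.24 ± 0.253 and 0.618 ± 0.287 FPKM and did not pass (limma adjusted p = 0.060). Both were picked out after their values were seen.

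Of 9 other cyclin, CDK and activator genes, 7 were tested, 2 fell and 1 rose, with a median log2 fold change of -0.18. These counts are near the shares of 18.1% lower and 16% higher among all tested genes. CCNA2, the S-phase cyclin that succeeds cyclin E on CDK2, fell from 9.49 ± 1.12 to 5.96 ± 0.836 FPKM, and CDK1, the mitotic kinase, from 2.32 ± 0.343 to 1.37 ± 0.147 FPKM. MNAT1, the assembly factor of the CDK-activating kinase, read 1.14 ± 0.0545 and 1.69 ± 0.252 FPKM and was called higher (limma adjusted p = 0.023). That call was lost without the filter and without any 1 of control replicates 2 and 3 and SF3B4 siRNA replicates 1 and 3. The other subunits of that kinase, CDK7 (1.71 and 1.52 FPKM) and CCNH (1.22 and 1.07 FPKM), did not pass.

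Among 10 genes for the turnover of cyclins and inhibitors, 9 were tested, 3 fell and 1 rose, with a median log2 fold change of -0.08, against 18.1% lower and 16% higher among all tested genes. SKP2, the F-box protein that marks p27 for degradation, fell from 2.21 ± 0.211 to 0.757 ± 0.213 FPKM (log2 fold change -1.46 ± 0.19 SE, limma adjusted p = 0.0013). DTL, the substrate receptor that marks CDT1 and p21, fell from 2.09 ± 0.139 to 0.992 ± 0.0509 FPKM, and SKP1, an adaptor of the SKP2 ligase, from 10.0 ± 1.63 to 7.29 ± 0.584 FPKM. DDB1, an adaptor of the DTL ligase, rose from 23.0 ± 0.360 to 27.6 ± 1.39 FPKM. SKP2 reached the filter through the control libraries alone, so it was not tested when any of them was left out, and without it 2 of 8 were called lower. The count of 3 became 1 without control replicate 1 or 2, and the rise of DDB1 was lost without control replicate 2 or SF3B4 siRNA replicate 2. AMBRA1, the receptor that marks D-type cyclins, did not pass (5.50 ± 0.470 and 6.39 ± 0.489 FPKM).

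Of 14 genes for factors known to act on CCND1 transcription, 10 were tested, 3 fell and 2 rose, with a median log2 fold change of -0.20. The shares among all tested genes were 18.1% lower and 16% higher, close to these counts. FOSL1, an AP-1 subunit, fell from 4.12 ± 0.685 to 1.35 ± 0.176 FPKM (SD, n = 3 each), its partner JUN from 13.5 ± 0.292 to 9.76 ± 0.752 FPKM, and CTNNB1, which encodes beta-catenin, from 16.8 ± 2.17 to 11.3 ± 0.864 FPKM. ETS2 rose from 12.4 ± 0.680 to 16.6 ± 0.159 FPKM and STAT3 from 18.5 ± 2.23 to 23.7 ± 0.961 FPKM. The rise count of 2 was 1 without any 1 of control replicates 2 and 3 and SF3B4 siRNA replicates 1 and 3.

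**Figure D4:**
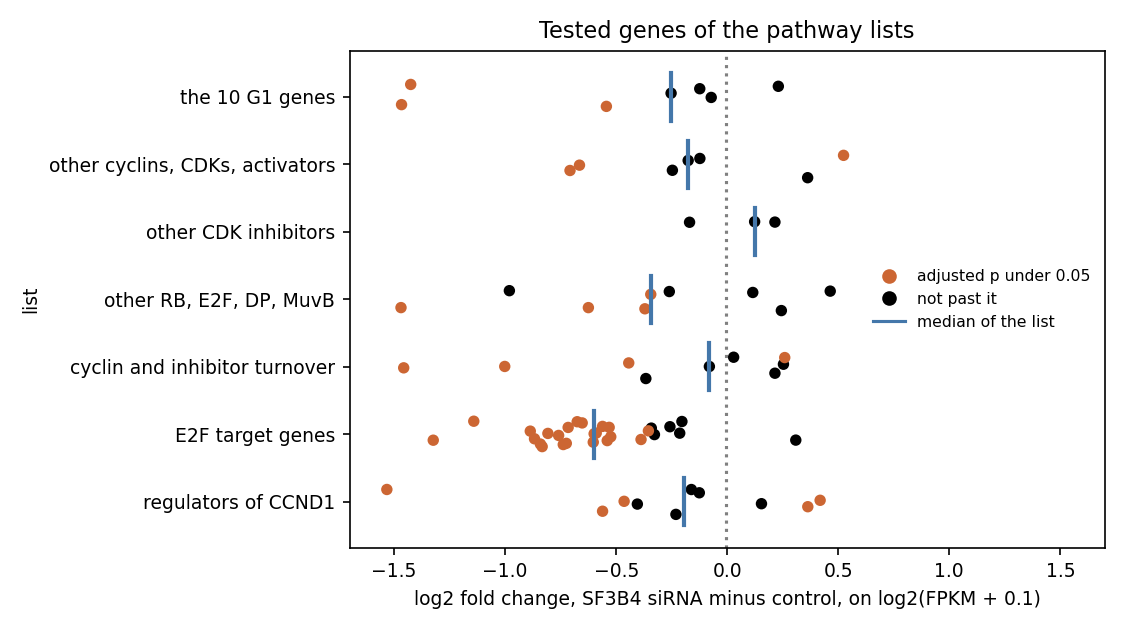
Log2 fold change (SF3B4 siRNA minus control, log2(FPKM + 0.1) scale) of the tested genes of 7 lists, 1 point per gene spread vertically at random, orange for limma adjusted p under 0.05 and black otherwise, with a blue line at each list's median and a dotted line at the median of all tested genes. The E2F targets have a median of -0.60 with 22 of 28 called lower.

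The genes whose pattern over the 6 libraries was most like each of the 3 fallen genes were found by the root mean square distance of log2 values after subtracting the control mean. Nearest to CCND1 were ITGB1 (distance 0.09), HSPA6 (0.12) and TUSC1 (0.14), with log2 fold changes of -1.51, -1.51 and -1.43. ITGB1 has an annotated pseudogene, ITGB1P1, and whether reads were shared with it was not tested. HSPA6 and SAV1 had treated means under 1 FPKM, at 0.411 and 0.871 FPKM. Nearest to CDK2 were ETV5 (0.10), RAP2B (0.11) and XPO5 (0.12), with log2 fold changes of -1.46, -1.38 and -1.26, and nearest to CDK4 were SAV1 (0.03), PAK1IP1 (0.05) and SNHG3 (0.06), with -0.55, -0.51 and -0.59. These distances describe 6 libraries in 2 groups, and other genes with a similar fold change lie close as well.

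The 7-mers GCCTTCA and CCTTCAA, picked earlier from genes that fell in these same data, were looked up in the longest 3' UTR of each gene (GENCODE 29). Of 8382 searched genes that were tested, 19.1% carried either, and of the 1566 of them that fell, 33.9% did. Because the 7-mers were picked from fallen genes, a higher share among fallen genes was built in and is no result. The counts of carriers below are descriptions only, and 3' UTR length was not taken into account. CCND1, CDK2 and CDK4 carried neither, in 3' UTRs of 3192, 1159 and 1022 bases, nor did TFDP1. Of the 10 genes, CDK6 alone carried one, CCTTCAA at base 4829 of its 10219-base 3' UTR. SKP2 carried GCCTTCA at base 103 of 2288. These sites are shown, with the 7-mer in capitals, because CDK6 is the only one of the 10 genes with a copy and SKP2 had the largest fall among the turnover genes.
CDK6: gaagtggacttCCTTCAAcatattgttac
SKP2: gttttccctttGCCTTCAttctgcaagta
Of the 22 fallen E2F targets, 3 carried either 7-mer, PRIM1, RRM2 and CDT1. Of the 3 fallen turnover genes 2 did, SKP2 and SKP1, and of the 4 fallen RB, E2F and MuvB genes 1 did, E2F2. FOSL1 was the only one of the 3 fallen CCND1 regulators with a copy.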

How the data were processed

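The authors deposited 1 FPKM value per Ensembl gene and library, per the file headers. The submitters' processing notes list HISAT2 2.0.4, StringTie 1.3.0 and GRCh38 and give no role for each. The annotation and strand setting are not stated in the sources used here. Symbols were found for 49659 of 50868 identifiers. Positions, exon overlaps and 3' UTRs came from GENCODE 29 (GRCh38), which may differ from the authors' annotation. FPKM times length in single-exon genes moved in steps of 53.9 to 57.1, taken as 1 fragment. In these genes 99.1% to 99.5% of low values were whole numbers of steps, with a tolerance of 0.02. Fragment numbers of a gene use the length of 1 reference transcript and cover counting error only.

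Genes reaching 1 FPKM in 3 or more of the 6 libraries were tested with limma 3.58.1 in R 4.3.3 (log2(FPKM + 0.1), trend and robust options, two-sided, Benjamini-Hochberg over 9685 genes). Log2 fold changes on this scale understate changes of low genes. The 10 genes and the 6 other lists were chosen with earlier results of these data known. Named are all 10 genes, SF3B4, from each list up to 4 genes with the largest change past the threshold, CDKN2A, CDKN2B, CCND2 and CDKN1A as levels, and the 3 nearest genes to CCND1, CDK2 and CDK4. RBL1, RBL2, TFDP2, E2F3, E2F7, CDK7, CCNH, CDKN2C, CDKN2D, AMBRA1, MYBL2, TK1, STAT3 and, for their 3' UTRs, RRM2 and CDT1 are named in addition, after their values were seen. Alternatives were other pseudocounts, filters, scalings and variance options, a replicate block, and leaving out libraries. Same-numbered libraries of the 2 groups were checked for shared deviations. One marker of the cell line list is not reported here.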

Additional observations from a re-analysis of the deposited data

How the results depend on the processing

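CCND1 and CDK4 were called lower in all 16 alternatives, and CDK2 in the 15 that tested it, with log2 fold changes of -1.72 to -1.32, -0.70 to -0.46 and -1.55 to -1.11. CCND3, CCNE1, CDKN1B and E2F1 were called in none. The number of the 10 genes called lower was 3 in most, 2 at a mean FPKM of at least 5, where CDK2 is not tested, and 4 without the filter, where RB1 is called. RB1 and CCNE2 had few fragments, and their log2 differences ranged from -1.01 to -0.33 and from -1.02 to -0.20 over the alternatives, the ends being pseudocounts of 0.01 and 1. Quantile normalization was run on tested genes only and gave no value for RB1, CCNE2 and CDK6.

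Over all genes, 1027 were higher and 940 lower at a mean FPKM of at least 5, where fewer genes are tested. With SF3B4 siRNA replicate 1 as the only library of its group, chosen after seeing the data because replicates 2 and 3 have other genotype labels, 384 were higher and 808 lower, and 3 of the 10 genes were still called lower, assuming that the lone library varies like the controls. In that setting 14 E2F targets were lower, and the other cyclin and CDK genes had 1 lower and 0 higher, the RB, E2F and MuvB genes 1 lower, the turnover genes 0 higher and the CCND1 regulators 0 higher. With that stricter filter, the other cyclin and CDK genes had 1 lower and 0 higher and the turnover genes 1 lower. Without the filter, the other cyclin and CDK genes had 0 higher and the CCND1 regulators 1 higher. Quantile normalization gave 1 RB, E2F and MuvB gene higher, and median-ratio scaling 2 turnover genes higher. Leaving out 1 library gave, over the 6 choices, 0 to 1 other cyclin and CDK genes higher, 0 to 1 other inhibitors lower, 2 to 4 RB, E2F and MuvB genes lower and 0 to 1 higher, 1 to 3 turnover genes lower and 0 to 1 higher, 1 to 2 CCND1 regulators higher, and 19 to 23 E2F targets lower. The cause of these changes was not tested unless stated.

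With the replicate number as a block, 1290 genes were higher and 1537 lower, the 3 falls among the 10 genes kept their calls, and 1 RB, E2F and MuvB gene was higher. Same-numbered libraries had correlations of -0.08, 0.02 and -0.12 between their deviations. Deviations from a mean of 3 libraries balance around 0, so these values cannot show whether same-numbered libraries share more than a number. Of the 3 control libraries, replicates 1 and 3 correlated best with another number.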
